A study of Mus musculus with 2 samples.

Results

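The cells described here are 824 barcodes that carry the marker pattern of vascular endothelium, out of 26158 cells kept from 2 single-cell RNA libraries of newborn mouse eyes. A kept barcode was a member when it held at least 1 UMI (unique molecular identifier, 1 captured transcript) of 3 or more of 7 endothelial gate genes, at most 1 UMI summed over the mural genes Rgs5, Kcnj8 and Abcc9, and none of the leukocyte gene Ptprc. The gate genes were Pecam1, Cdh5, Kdr, Flt1, Cldn5, Emcn and Egfl7, and 539 of 14131 control cells and 285 of 12027 mutant cells passed.

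The series asked how loss of Myrf, a membrane-bound transcription factor of the retinal pigment epithelium, alters the developing eye. The control library came from Myrf fl/fl pups and the mutant library from Rx>cre Myrf fl/fl pups at postnatal day 0, so the floxed alleles were shared by both genotypes and the cre transgene was the difference. Rx>cre is active in the early eye field, which gives rise to retina, pigment epithelium and ciliary epithelium, whereas vascular endothelium reaches the eye from outside that field and is not a cell type in which this driver is known to delete. Each library pooled 3 eye cups without cornea, lens and optic nerve, and there was 1 library per genotype, so differences between genotypes have no replicate check and no test was made.

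Endothelial cells line all blood vessels, hold together through Cdh5, Cldn5 and Pecam1, and grow in response to VEGF through the receptors Kdr and Flt1. In the newborn mouse eye they form several beds that differ in kind: the fenestrated choriocapillaris outside the pigment epithelium, which carries the diaphragm protein Plvap, the hyaloid vessels of the vitreous, and the superficial retinal plexus that is just entering the retina. Retinal vessels acquire a barrier under Norrin and Wnt signals through Fzd4 and beta-catenin, with transporters such as Mfsd2a, Slc2a1 and Slc7a5, while Plvap marks vessels without that barrier. Schlemm's canal and lymphatic-like vessels of the eye express Prox1 and Flt4.

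Before the results, 3 features of the libraries bear on every comparison. The 2 libraries held 78731338 and 75921519 UMIs in kept cells, with medians of 4231 and 4990 UMIs a cell (control, then mutant, as in all pairs of values below), and 59 cell barcodes occurred in both, 1 of them among the members. Animals of different sex were pooled in different proportions: 7.30% of kept control cells but 69.8% of kept mutant cells carried Xist without any Y-linked UMI, and 50.5% against 13.5% had a Y-linked UMI and no Xist. Transcripts of other cell types were detected in the members, in part at different rates. At least 3 mesenchyme genes were detected in 77.9% of control members but 17.9% of mutant members, close to the 74.8% and 16.2% of all other kept cells. Their sum over all members was similar, at 4107 and 4148 UMIs when scaled to a total of 1000000. In members with 5 or more gate genes it was not, at 1939 and 978 on the same scale (log2 ratio -0.99). For 3 or more retinal progenitor genes the rates in members were 52.9% and 53.7%. The source of these transcripts was not tested. Myrf itself was at 5 UMIs in the members of each library (1.07 and 1.69 CPM, that is UMIs scaled to a total of 1000000), and in the other kept cells at 878 and 124 UMIs (11.9 and 1.70 CPM, log2 ratio -2.25). The 3′ counts of Myrf can come from sequence outside the deleted part, so they check the label only in part.

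The members were chosen by detection of the gate genes, so the levels of these genes are a description. Summed over the members, Egfl7, a secreted protein of endothelium, stood at 1730 CPM (control) and 1710 CPM (mutant). Cdh5, the adhesion protein of endothelial junctions, stood at 768 and 765 CPM, and Pecam1 at 354 and 356. The VEGF receptors Kdr and Flt1 were at 512 and 503 CPM and at 462 and 436 CPM, and the sialomucin Emcn at 718 and 699. Cldn5, the main claudin of tight junctions in endothelium, lay apart from the other 6, at 1360 and 984 CPM (log2 ratio -0.47, 95% interval -0.53 to -0.40). All intervals given here are exact and cover counting error only, which is not the variation between animals.

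The label of endothelium was checked with 28 pan-endothelial genes that the gate did not use, among them Tie1, Tek, Esam, Erg, Sox17, Sox18, Eng and Robo4. Their summed level depended on how many gate genes a member showed. Control members with all 7 gate genes held 10500 CPM of these transcripts and a median of 22 of the 28 genes. Those with 6 held 8997 CPM, those with 5 held 7795, those with 4 held 2419, and those with 3 held 731 CPM and a median of 2 genes. In the mutant the same steps were 10830, 9957, 5962, 1220 and 431 CPM, with a median of 23 genes at 7 gate genes and 1 gene at 3. Cells just outside the threshold, with 2 gate genes, held 240 and 139.5 CPM. The members with 3 gate genes therefore lay nearer to the cells outside the gate (343 and 243 CPM) than to members with 5 or more. They were also nearer to mural-gated cells (767 and 646 CPM).

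**Figure D1:**
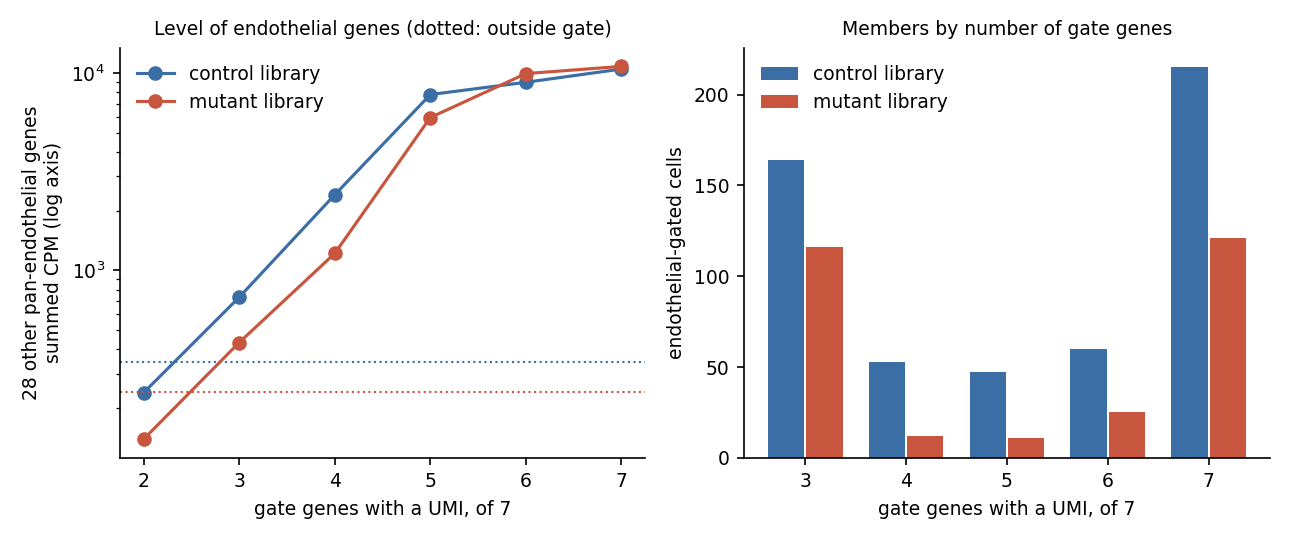
Summed level of the 28 pan-endothelial genes in CPM (left, log axis) and number of cells (right) by how many of the 7 gate genes a cell showed, for the control and mutant libraries. The level rises from 731 and 431 CPM at 3 gate genes to 10500 and 10830 CPM at 7.

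Members with exactly 3 gate genes were 164 control cells (30.4% of the members) and 116 mutant cells (40.7%). Their most frequent trio was Kdr, Cldn5 and Egfl7, in 42 control and 44 mutant cells. Retinal progenitor genes summed to 6417 and 6860 CPM in them, against 1023 and 706 CPM in members with all 7 gate genes. At least 5 pan-endothelial genes were seen in 26.2% and 18.1% of the members with 3 gate genes, and in 98.5% and 98.7% of those with 5 or more. The label endothelium thus holds for the 322 control and 157 mutant members with 5 or more gate genes and not for most members with 3. The full set is called endothelial-gated cells below, and the main results are given also for the 479 cells with 5 or more gate genes, a class chosen after these values were seen.

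Among genes with over 200 UMIs in control members, those that best set the members apart from the other kept cells included familiar endothelial ones, read here as a description because the gate selects cells that share transcripts. The transcription factor Sox17 was 179-fold higher in control members than in the other control cells and 155-fold in the mutant. Vwf, the clotting protein stored by endothelium, was 144-fold and 104-fold higher, the guidance receptor Robo4 133-fold and 102-fold, and Aplnr, the receptor for apelin, 109-fold and 130-fold. Icam2, Adgrl4, Myct1, Gpihbp1, Sox18 and Plvap followed at 75.7-fold to 133-fold in either library. Fabp4, a fatty acid carrier of capillary endothelium, was enriched 70.5-fold in the control and 184-fold in the mutant, but 1585 of its 4337 mutant UMIs were in 1 cell, and without the top cell of each library its log2 ratio between genotypes moved from 0.06 to -0.46.

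Endothelial-gated cells made up 3.81% of kept control cells (exact interval 3.51 to 4.14) and 2.37% of kept mutant cells (2.11 to 2.66). The share was 1.61-fold higher in the control, a log2 ratio of -0.69 (-0.90 to -0.48). Among members with 5 or more gate genes the shares were 2.28% and 1.31%, a 1.75-fold difference (log2 ratio -0.80, -1.09 to -0.52). Members with all 7 gate genes gave a log2 ratio of -0.60 (-0.93 to -0.27), and those with exactly 3 gave -0.27 (-0.62 to 0.08), an interval that includes 0. Deep barcodes differed less: above 8000 UMIs there were 229 control and 154 mutant members (log2 ratio -0.34, -0.64 to -0.04), and at or below 8000 UMIs 310 and 131 (-1.01, -1.32 to -0.71). The median member had 6656 UMIs (control) or 8430 (mutant). Leaving out members with 3 or more genes of another cell class turned the direction, with 46 control and 100 mutant cells left (log2 ratio 1.35), a criterion that 91.5% of control and 64.9% of mutant members met.

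**Figure D2:**
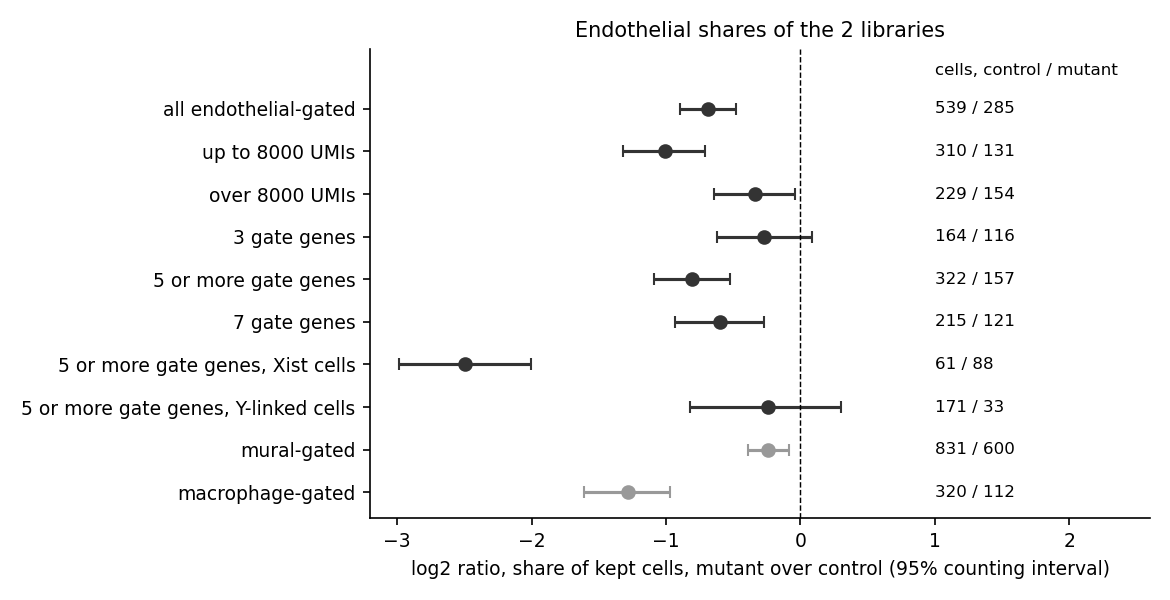
Log2 ratio of the share of kept cells (mutant over control, x axis) for endothelial-gated cells and their classes by depth, gate genes and sex-linked transcripts, with mural-gated and macrophage-gated cells beside them. Points are ratios and bars are exact 95% counting intervals. All points lie below 0, and the cells with Xist lie lowest among the endothelial ones.

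The neighbouring gated classes were also a smaller part of the mutant library. Mural-gated cells are named for the pericytes and smooth muscle that wrap vessels, but mesenchyme genes summed to 41580 and 43610 CPM in them. Outside the endothelial gate that sum was 17360 and 12250 CPM. The 12 mural genes summed to 2012 and 2096 CPM in mural-gated cells, beside 431 and 327 CPM outside the endothelial gate, so the name describes the gate only. Mural-gated cells numbered 831 and 600 (log2 ratio -0.24, -0.39 to -0.08), and macrophage-gated cells 320 and 112 (-1.28, -1.61 to -0.97). Endothelial-gated cells were 32.1% of these 3 classes together in the control and 28.8% in the mutant. The endothelial share depended on which sex-linked transcripts a cell carried. Where Xist was detected without a Y-linked UMI, 78 of 1031 control cells (7.57%) and 173 of 8392 mutant cells (2.06%) were members, a 3.67-fold difference (log2 ratio -1.88, -2.27 to -1.47). Among cells with a Y-linked UMI and no Xist it was 273 of 7134 (3.83%) and 43 of 1625 (2.65%), a log2 ratio of -0.53 (-1.03 to -0.06). For the members with 5 or more gate genes the same ratios were -2.50 (-2.98 to -2.00) and -0.24 (-0.82 to 0.31), so the second interval includes 0. Cells with neither kind of transcript were left out of this split, as were cells with both. Those with neither were 39.8% of kept control and 11.4% of kept mutant cells, with medians of 3084 and 3882 UMIs. They held 158 control and 46 mutant members, so the split covers the deeper cells and unequal parts of the libraries. Mural-gated cells were at -2.36 among cells with Xist and at 0.42 among cells with a Y-linked UMI, where the direction was opposite to the endothelial one. How much of the endothelial difference belongs to the genotype and how much to animals of different sex or recovery of tissue cannot be told apart with 1 pool a genotype.

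Expression was then compared between the genotypes over the summed UMIs of the members, 4678307 (control) and 2963289 (mutant). A gene counted as measured with 30 or more UMIs over both libraries, its ratio was taken as log2((mutant CPM + 1)/(control CPM + 1)), and it counted as past 2-fold beyond 1 on that scale. Of 11318 measured genes, 76 (0.671%) were at least 2-fold higher in the mutant and 99 (0.875%) at least 2-fold lower, with a median of 0.028. In members with 5 or more gate genes it was 52 of 10014 genes higher (0.519%) and 184 lower (1.84%). Most endothelial gene groups were close to this background. Of the 28 pan-endothelial genes, 0 passed 2-fold in either class, with a median log2 ratio of -0.13 over all members and 0.05 over those with 5 or more gate genes. Ramp2, a co-receptor for adrenomedullin, was at 1260 and 1130 CPM, and Ctla2a, a protease inhibitor, at 725 and 661 CPM.

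**Figure D3:**
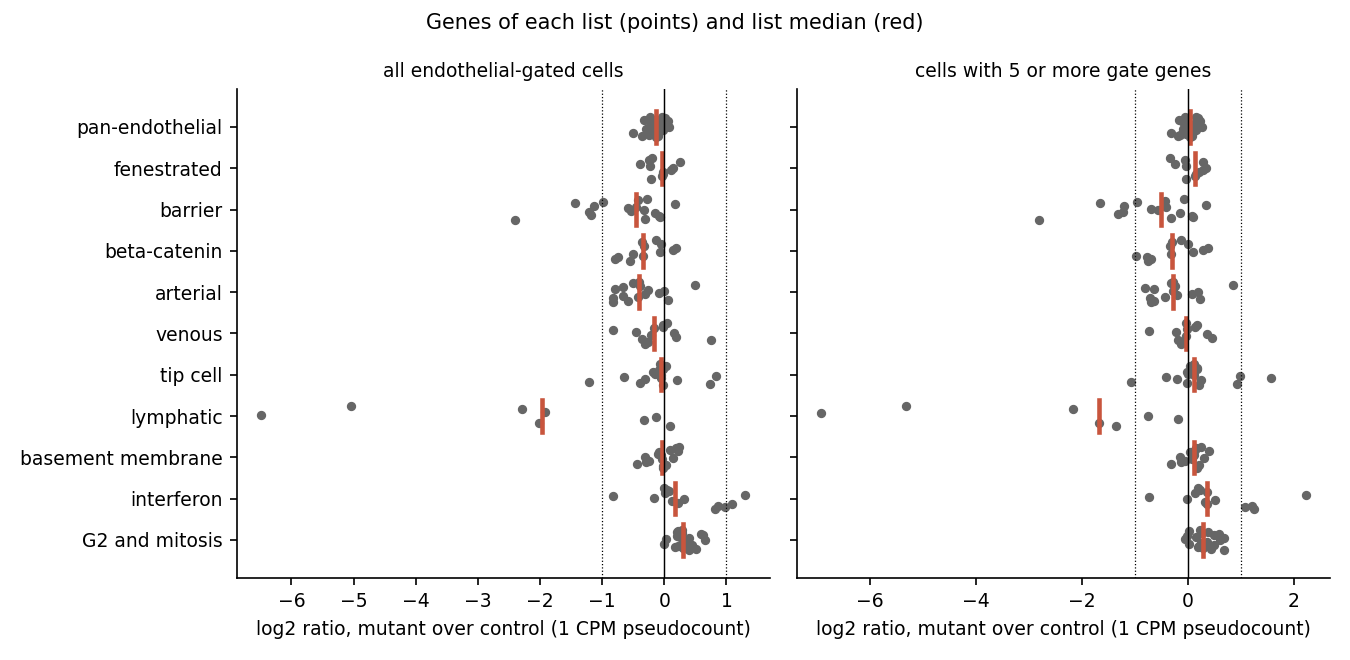
Log2 ratio (mutant over control) of each measured gene in the endothelial gene lists, over all endothelial-gated cells and over those with 5 or more gate genes. Each point is 1 gene and red marks are list medians; the lymphatic list (medians -1.97 and -1.67) and the barrier list (-0.45 and -0.50) lie lowest, and Ccl21a, at 0 UMIs in the mutant, is drawn at its pseudocount value.

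The growth and signalling lists of endothelium had medians near 0. Over 9 measured VEGF ligands and receptors, 2 of them the gate genes Kdr and Flt1, the median log2 ratio was -0.08 (0.08 with 5 or more gate genes). The neuropilin Nrp1, a VEGF and semaphorin co-receptor, was at 185 and 142 CPM (log2 ratio -0.38, -0.56 to -0.22). In the angiopoietin and Tie pathway (9 genes, median -0.13, and 0.08 with 5 or more gate genes) the receptor Tek was at 141 and 109 CPM and its partner Tie1 at 287 and 262. In the Notch list (14 genes, median -0.11 in both classes) the target Hes1 was at 550 and 614 CPM and Notch1 at 189 and 176. In the BMP and TGF-beta list (21 genes, medians -0.09 and 0.016) the targets Id1 and Id3 were at 547 and 523 CPM and at 1270 and 1150 CPM. The basement membrane genes (16 genes, medians -0.03 and 0.12) included Col4a1 at 1557 and 1535 CPM and Sparc at 2420 and 2270 CPM. None of the genes in these 5 lists passed 2-fold over all members, against 0.671% and 0.875% of all measured genes, while with 5 or more gate genes 1 VEGF gene and 2 BMP and TGF-beta genes were at least 2-fold higher, against 0.519%.

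Fenestrated endothelium is the kind most exposed to the pigment epithelium, and its genes lay near 0. Over 11 measured fenestrated genes the median log2 ratio was -0.04 over all members and 0.13 with 5 or more gate genes, and 0 passed 2-fold. Plvap was at 857 and 739 CPM (log2 ratio -0.21, -0.29 to -0.14), and at 1132 and 1104 CPM in members with 5 or more gate genes (-0.04, -0.11 to 0.04). Igfbp3, which binds insulin-like growth factors, was at 953 and 926 CPM, and Rgcc, a cell cycle regulator of capillary endothelium, at 841 and 831. Gpihbp1, which carries lipoprotein lipase on capillaries, was at 337 and 362 CPM. Over 13 caveola and transcytosis genes the median was 0.00 (0.08 with 5 or more gate genes), with Cav1, the coat protein of caveolae, at 490 and 575 CPM, and 1 gene, the Mfsd2a described next, was at least 2-fold lower, against 0.875% of all genes.

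Barrier genes were lower in the mutant over all members, but the direction turned in cells with Xist. Among Xist cells with 5 or more gate genes their sum was at 0.62 (0.51 to 0.73), with 15 of 16 genes above 0. In Y-linked cells it was at -0.68 (-0.78 to -0.58). Of 17 measured barrier genes 16 had a ratio below 0 and 5 were at least 2-fold lower, against 0.875% of all genes, with a median of -0.45 over all members, and in cells with 5 or more gate genes the median was -0.50 with 5 of 16 at least 2-fold lower, against 1.84%. Mfsd2a, the lipid transporter that restrains transcytosis in barrier vessels (chr4:122946850-122961188, mm10), had 120 UMIs in 27 control cells and 12 UMIs in 7 mutant cells, which is 25.6 and 4.05 CPM (log2 ratio -2.40, -3.66 to -1.81). Slc7a5, the large neutral amino acid transporter (chr8:121881150-121907694), was at 104 and 44.2 CPM (-1.21, -1.52 to -0.95). Its partner Slc3a2 was at 247 and 165 CPM (-0.58, -0.74 to -0.43). The proteoglycan Spock2 was at 71.2 and 30.7 CPM (-1.19), with 78 of its 333 control UMIs in 1 cell and a ratio of -1.02 without the top cells. The transcription factor Foxq1, a marker of central nervous system vessels, was at 29.3 and 10.1 CPM (-1.44, -2.15 to -0.95), and Lsr, a protein of tricellular junctions, at 19.0 and 8.10 CPM (-1.14, -1.95 to -0.57).

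Other barrier genes were closer to equal. The glucose transporter Slc2a1 was at 469 and 379 CPM (log2 ratio -0.31, -0.41 to -0.20), although its ratio was 1.23 in mural-gated cells and 0.35 in the other kept cells. The efflux pump Abcg2 was at 192 and 180 CPM, Abcb1a at 32.3 and 30.7 CPM, and Ly6e at 317 and 356 CPM. The same barrier list had a median of -0.04 in mural-gated cells and -0.04 in cells outside the gate. Genes of the beta-catenin pathway, which induces the barrier, had a median of -0.34 (12 measured, 0 past 2-fold). The receptor Fzd4 was at 96.6 and 106 CPM and its co-receptor Lrp5 at 45.7 and 52.0 CPM. Of the other genes, 3 picked out like Lrp5 after their values were seen were Lef1 (20.7 and 13.8 CPM, -0.55, -1.15 to -0.04), Axin2 (10.7 and 5.74 CPM, -0.79, -1.78 to -0.08) and Tcf7 (10.3 and 5.74 CPM, -0.74, -1.73 to -0.01). Lef1 in Xist cells with 5 or more gate genes was at 1 and 20 UMIs, the opposite direction. After thinning the beta-catenin median was 0.19. Among members with up to 8000 UMIs the beta-catenin median was 0.02. After members with 3 or more genes of another cell class were left out, the barrier median was -0.04, and in cells with Xist it was 0.19, opposite to the whole.

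Arterial genes had a median below 0, and 0 of the 16 measured passed 2-fold. The median was -0.41 over all members and -0.28 with 5 or more gate genes. Over all members 14 genes had a ratio below 0 and 2 above, among the latter Stmn2, given under the other observations. Mgp, a calcification inhibitor of arteries and mesenchyme, was at 451 and 339 CPM (log2 ratio -0.41). Other arterial genes named here were chosen after their values were seen, all of them lower. The gap junction gene Gja4 was at 84.9 and 47.6 CPM (-0.82, -1.12 to -0.55). In Xist cells with 5 or more gate genes Gja4 was at -0.31 (-0.77 to 0.14). The chemokine Cxcl12 was at 76.5 and 43.5 CPM (-0.80, -1.12 to -0.52) and the Notch ligand Jag1 at 74.8 and 46.6 CPM (-0.67, -0.98 to -0.40). Mgp and Cxcl12 are also mesenchymal, and in the other kept cells they were at -0.60 and -0.75, so the part of mesenchymal RNA in these 2 ratios was not tested. Venous genes (13 genes, medians -0.16 and -0.038) included Vwf at 320 and 250 CPM and Aplnr at 181 and 156 CPM. Tip cell genes (19 genes, medians -0.06 and 0.11) held over all members 1 gene past 2-fold, the potassium channel subunit Kcne3, at 17.7 and 7.09 CPM (-1.21, -2.09 to -0.62), against 0.875% of all genes lower.

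Lymphatic genes showed the lowest median of any endothelial list, -1.97 over 8 measured genes with 5 at least 2-fold lower against 0.875% of all genes, and -1.67 with 5 or more gate genes. Among members with up to 8000 UMIs it was -0.27, over 3 genes. These counts came from few cells. Lyve1, the hyaluronan receptor of lymphatic endothelium, was at 135 UMIs in 16 control cells and 19 UMIs in 4 mutant cells (28.9 and 6.41 CPM, log2 ratio -2.01, -2.95 to -1.47). Mmrn1, which endothelial cells store and secrete, was at 141 UMIs in 32 cells and 16 UMIs in 15 cells (30.1 and 5.399 CPM, -2.28, -3.33 to -1.73). The peptide precursor Nts had 359 UMIs in 16 control cells, 212 of them in 1 cell, and 4 in the mutant (-5.05, and -4.60 without the top cells). Ccl21a, the chemokine that draws dendritic cells into lymphatics, had 414 UMIs in 2 control cells, 383 of them in 1, and 0 in the mutant, where a floor of 3 UMIs allows only that it was at least 87.4-fold lower. The lymphatic and venous receptor Flt4 was at 58.1 and 45.9 CPM (-0.33, -0.65 to -0.04), and Prox1, the transcription factor of lymphatic identity that retinal progenitors also express, was at 22.7 and 24.3 CPM over all members but at 42 against 8 UMIs in members with 5 or more gate genes (-1.36, -2.86 to -0.45). Members with 3 or more lymphatic genes were 17 of 539 in the control (3.15%) and 3 of 285 in the mutant (1.05%). Lyve1 is also a macrophage gene, and macrophage genes summed to 229 and 19.9 CPM in the same members. Of the 1070 control UMIs in that sum 609 were in 1 cell. Members with 3 or more macrophage genes were 8 of 539 in the control and 1 of 285 in the mutant. Lymphatic genes summed to 352 and 121 CPM in the members and to 670 and 499 CPM in macrophage-gated cells, and the part of macrophage RNA in these ratios was not tested.

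Besides the lists, genes at least 2-fold above the other kept cells in the library with the higher level were ranked by the bound of their counting interval nearest to 0. The 12 lower genes of this ranking included barrier and lymphatic genes given above, and among genes without such enrichment the crystallins described below led the lower side. Ihh, Indian hedgehog, a signal of the choroidal endothelium (chr1:74945315-74951672), was at 411 UMIs in 103 control cells and 115 UMIs in 41 mutant cells (87.9 and 38.8 CPM, log2 ratio -1.16, -1.49 to -0.88). The transcription factor Tbx1 was at 13.0 and 3.37 CPM (-1.68, -3.08 to -0.97), Fam78a at 7.48 and 1.35 CPM (-1.85), and Scgb3a1 at 9.41 and 1.69 CPM (-1.95). The polyamine acetyltransferase Sat1, which lies on the X chromosome, was at 365 and 195 CPM (-0.90, -1.05 to -0.77) and at -0.20 and -0.25 in mural-gated and other cells.

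On the higher side the gene with the most UMIs that was not led by 1 cell was Edn1, endothelin 1, a vasoconstrictor peptide of endothelium, at 44.2 and 89.1 CPM (log2 ratio 0.99, 0.74 to 1.28), and 1.18 in members with 5 or more gate genes. The gene 8430408G22Rik (chr6:116650609-116652794), which has no assigned function here and was 107-fold and 203-fold above the other kept cells in the 2 libraries, was at 33.1 and 97.5 CPM (1.53, 1.27 to 1.85), and 61 of its 289 mutant UMIs were in 1 cell (1.36 without the top cells). Mtmr11, a myotubularin-related protein, was at 11.3 and 25.3 CPM (1.09, 0.63 to 1.70), Tnfrsf9, a costimulatory receptor, at 1.71 and 9.79 CPM (1.99, 1.35 to 3.86), and Gda, guanine deaminase, at 2.35 and 9.45 CPM (1.64, 0.96 to 3.16). Rbp2, a retinol-binding protein, had 17 of 47 mutant UMIs in 1 cell and stayed past 2-fold without the top cells (1.86, and 1.403 without). Several genes of this ranking rested on 1 mutant cell: Timp4 held 57 of 88 mutant UMIs in 1 cell (1.42, and 0.26 without the top cells), Ccl2 63 of 67 (1.31, and -1.33 without), and Ccl5, at 0 UMIs in the control, 200 of 200. Dsp (51 of 51) and Gsta2 (29 of 30) were of the same kind, and so were the surface epithelium genes Krt5 (232 of 236), Krt12 (427 of 430), Krt13 (41 of 41), Perp (79 of 80) and Asprv1 (56 of 57). These keratin-type genes were at 0 or 1 UMI in mutant members with 5 or more gate genes.

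**Figure D4:**
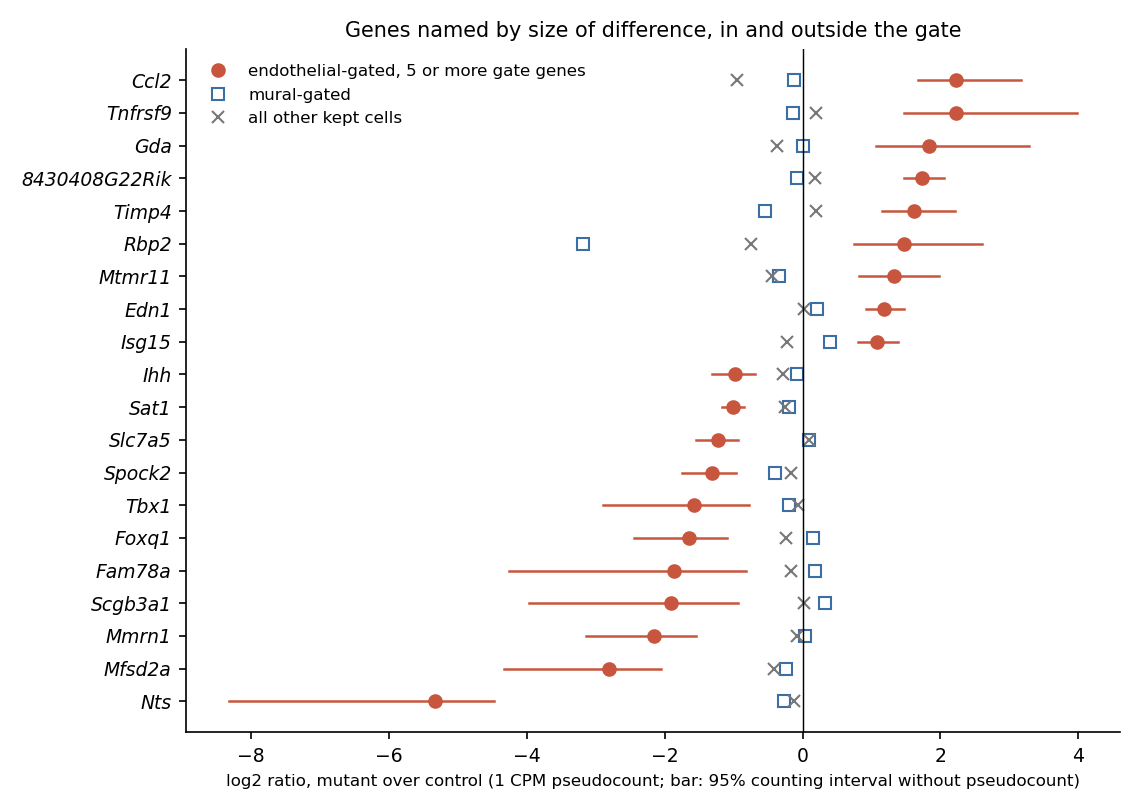
Log2 ratio (mutant over control, x axis) of the ranked genes with at least 1 UMI in both libraries, in endothelial-gated cells with 5 or more gate genes, with the ratio in mural-gated cells and in all other kept cells beside it. Bars are exact 95% counting intervals; Mfsd2a, Mmrn1 and Nts lie at -2.80, -2.16 and -5.33 in the endothelial cells, while their mural values lie between -0.27 and 0.04.

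Genes that interferon induces were higher in part. Over 14 measured interferon and inflammation genes the median log2 ratio was 0.18 with 2 at least 2-fold higher, Irf7 and, on 1 cell, Ccl2, against 0.671% of all genes, and in members with 5 or more gate genes it was 0.36 with 4 of 13 at least 2-fold higher (Ccl2 on 1 cell), against 0.519% of all genes there. Isg15, a ubiquitin-like modifier, was at 193 UMIs in 87 control cells and 225 UMIs in 73 mutant cells (41.3 and 75.9 CPM, 0.86, 0.60 to 1.17), and at 52.3 and 112 CPM in members with 5 or more gate genes (1.08, 0.80 to 1.39). Irf7, the transcription factor that amplifies the response, was at 8.98 and 20.2 CPM (1.09, 0.58 to 1.78). The abundant members of the list lay closer to 0, with the antiviral membrane proteins Ifitm3 at 947 and 1037 CPM (0.13, 0.06 to 0.20) and Bst2 at 409 and 509 CPM (0.31, 0.22 to 0.41). In the other kept cells Isg15, Irf7, Ifitm3 and Bst2 were at -0.23, -0.67, -0.58 and -0.51, and in mural-gated cells at 0.40, 0.20, -0.02 and 0.12. Among members with up to 8000 UMIs the interferon median was -0.04.

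Because many interferon-induced genes are known to share a regulatory element, 3 of their promoters are shown, from RefSeq on GRCm38.p6, cut from the window of 250 bases before to 50 after each start. The motif searched was GAAANNGAAA on both strands, the core of the interferon-stimulated response element, and matches to it (overlapping ones merged) are in capitals, 5′ to 3′ on the strand of the gene. Isg15 lies at chr4:156200835-156200936 (minus strand, 3 matches), Ifit1 at chr19:34640745-34640853 (plus strand, 2 matches) and Bst2 at chr8:71537547-71537642 (minus strand, 2 matches).
Isg15: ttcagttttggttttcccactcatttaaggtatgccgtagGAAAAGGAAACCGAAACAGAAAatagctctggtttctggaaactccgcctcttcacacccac
Ifit1: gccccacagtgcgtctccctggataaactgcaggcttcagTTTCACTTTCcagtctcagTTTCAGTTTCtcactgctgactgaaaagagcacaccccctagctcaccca
Bst2: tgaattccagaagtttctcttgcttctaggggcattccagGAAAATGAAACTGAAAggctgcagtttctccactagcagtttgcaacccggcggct
Counted by gene, the motif was present in a promoter of 7 of 14 genes of the interferon list: B2m, Isg15, Cxcl10, Ifitm3, Bst2, Ifit3 and Ifit1. Counted by promoter and not by gene, it was in 1131 of all 32851 promoters (3.44%). By gene it was in 0 of 16 of the barrier list and 0 of 12 of the pan-endothelial list that matched an entry. A match is a string of letters and not a measured binding site.

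Flow, hypoxia, cycle and stress genes completed the picture of endothelial state. The flow-induced transcription factors Klf2 (770 and 872 CPM, log2 ratio 0.18, 0.11 to 0.25) and Klf4 (110 and 125 CPM, 0.18, -0.02 to 0.37) lay above 0, while the flow list as a whole (13 genes) had a median of -0.20 and a sum at 0.065, with Cyp1a1 past 2-fold at 27 and 6 UMIs, against 0.875% of all genes lower. With 5 or more gate genes the flow median was -0.058 and the sum at 0.25 (0.19 to 0.30). Of 12 flow genes measured there 1 was at least 2-fold higher and 1 lower, against 0.519% and 1.84% of all genes. Hypoxia and VEGF response genes (16 measured) had a median of 0.26, with Ldha at 418 and 559 CPM, and glycolysis genes a median of 0.27, with 0.18 and 0.14 for these lists at 5 or more gate genes. The glycolysis genes were at 0.46 outside the gate. The hypoxia and VEGF response median was 0.30 in mural-gated, 0.50 in macrophage-gated and 0.18 in all cells outside the gate, so this direction was not particular to the members. Among genes of sprouting capillaries, Apln at 33.6 and 56.4 CPM (0.73, 0.42 to 1.07) and Adm at 18.4 and 33.4 CPM (0.83) were higher, neither past 2-fold. For Adm, 51 of 99 mutant UMIs were in 1 cell and the ratio without the top cells was 0.11. With 5 or more gate genes Apln was at 36.5 and 45.0 CPM in Xist cells (0.30, -0.44 to 1.08) and at 50.7 and 145.5 CPM in Y-linked cells. The tip cell list did not share this direction over all members, with 15 of 19 genes below 0. With 5 or more gate genes 14 of the 19 were above 0. All 20 genes of G2 and mitosis had a ratio above 0 (median 0.30, 0 past 2-fold), and 18 of 20 did with 5 or more gate genes (0.28). Ube2c was at 231 and 282 CPM and Cks2 at 225 and 275. Among members with up to 8000 UMIs, however, the G2 and mitosis median was -0.03. In mural-gated and macrophage-gated cells it was 0.35 and 0.38. With 5 or more gate genes the sum was at -0.62 in Xist cells and 1.05 in Y-linked cells. S phase genes had a median of 0.38 over all members and 0.20 with 5 or more gate genes, beside 0.38 in cells outside the gate. Immediate early genes (median 0.01) and p53 targets (median 0.00) lay at 0.

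Transcripts of other cell types were found in the members and differed between the libraries. Of the 12 macrophage genes 7 were measured and all 7 were at least 2-fold lower in the mutant (median -3.71), against 0.875% of all genes, but with 5 or more gate genes 2 were measured, 1 above 0 and 1 at least 2-fold lower (median -0.44), against 1.84%. Their sum was 849.7 CPM in control members with 3 gate genes and 56.05 CPM in those with 5 or more. Of the 1070 UMIs of these genes over all control members, 609 were in 1 cell. C1qb was at 122 and 0 UMIs and Pf4 at 452 and 29 UMIs, of which 252 were in 1 control cell. Red cell genes were lower as well, with Hbb-bs at 9576 UMIs in the control, 7098 of them in 1 cell, and 221 in the mutant. The lens crystallins Cryaa, Cryba1, Cryga and Crygb had 337, 409, 375 and 215 UMIs in control members and 0 in mutant members, which makes them at least 71.2-fold, 86.4-fold, 79.2-fold and 45.4-fold lower, and Cryge had 480 and 1. The crystallins were as unequal outside the gate, at log2 ratios of -6.84 to -7.63. Members with 3 or more genes of another cell class numbered 493 of 539 (91.5%) in the control and 185 of 285 (64.9%) in the mutant. The mural genes that the rule excludes were low, with Rgs5 at 10 and 2 UMIs, while the whole list of 12 mural genes summed to 121 and 97.9 CPM. The part of this foreign RNA in the other ratios was not tested.

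The pools differed in sex, so the gene ratios were taken again among members with 5 or more gate genes, separately for the 61 control and 88 mutant cells with Xist only and the 171 control and 33 mutant cells with a Y-linked UMI only. Left out were the 69 control and 26 mutant cells with neither and the 21 and 10 with both. Barrier genes then went opposite ways. Their summed level was 1486 CPM in control and 2284 CPM in mutant cells with Xist (log2 ratio 0.62, 0.51 to 0.73, 15 of 16 genes above 0), and 2768 against 1732 CPM in cells with a Y-linked UMI (-0.68, -0.78 to -0.58, 13 of 16 below 0). Within the control library itself the barrier sum was higher in the Y-linked than in the Xist cells, by 0.90 on the log2 scale (0.80 to 1.00), and in the mutant it was lower (-0.40). Mfsd2a was at 0 and 4 UMIs in Xist cells and at 103 and 4 UMIs (48.4 and 7.099 CPM) in Y-linked cells. Slc7a5 was at 19.8 and 80.1 CPM against 179 and 33.7 CPM, and Spock2 at 12.2 and 55.1 CPM against 116 and 14.2 CPM. Cldn5, a gate gene given as a description only, followed the same order, at 993 and 1564 CPM against 2073 and 1203 CPM. The control cells with a Y-linked UMI were thus the high group for Mfsd2a, Slc7a5 and Spock2, and the lower level in the mutant was not seen in the cells with Xist.

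**Figure D5:**
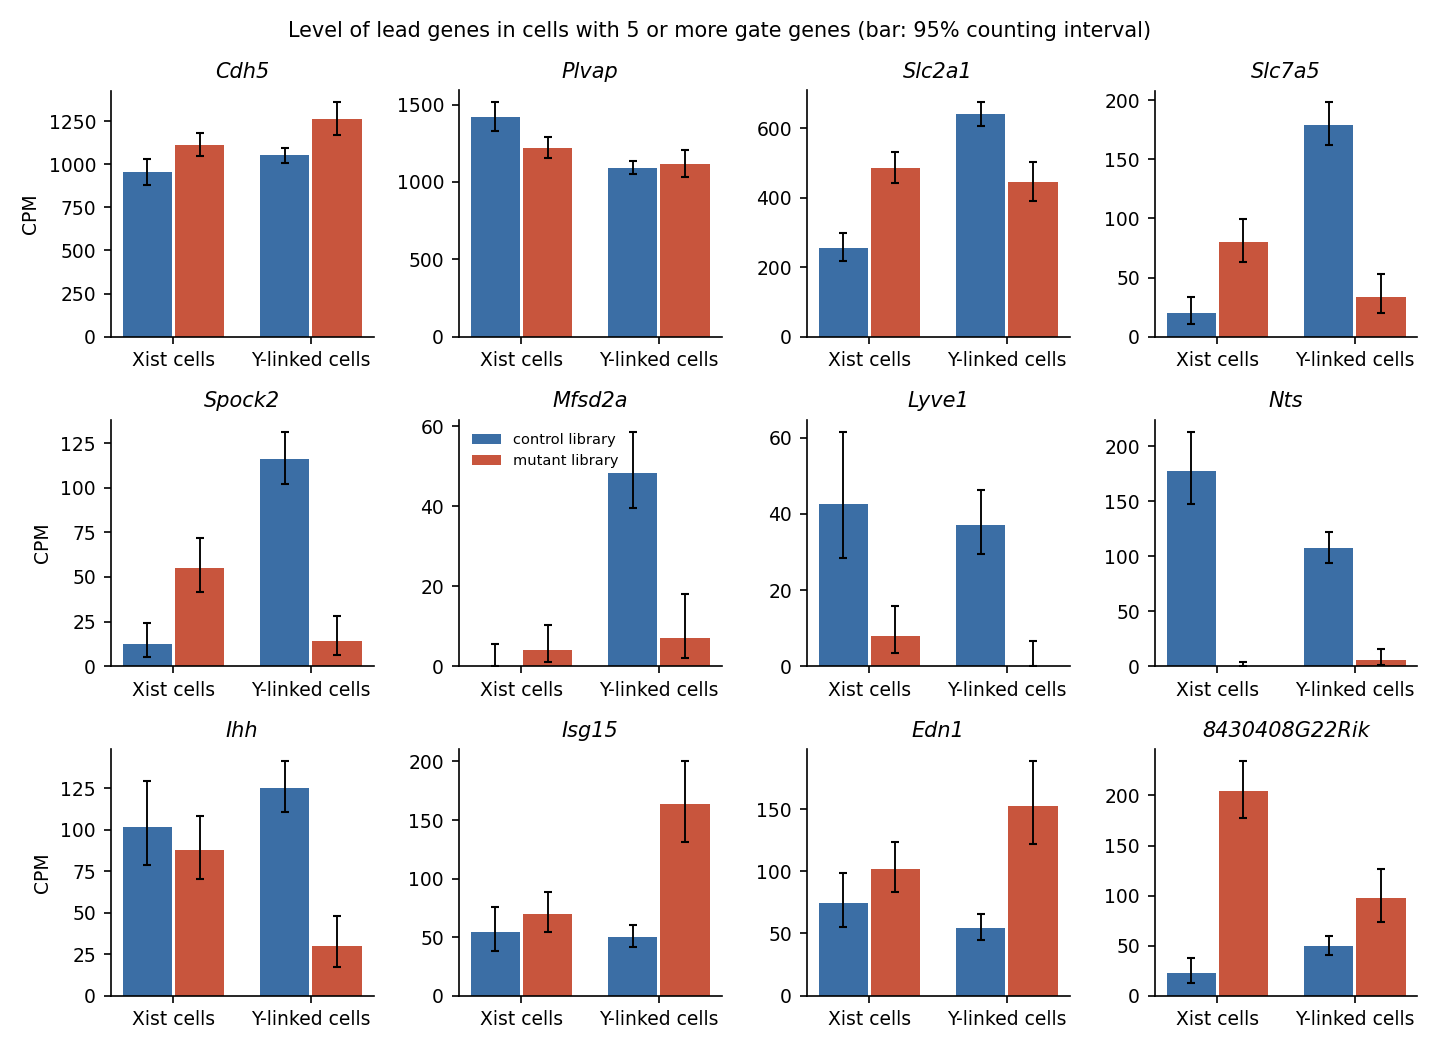
Level in CPM of 12 endothelial genes in cells with 5 or more gate genes, split by library and by sex-linked transcripts (Xist only or Y-linked only); bars start at 0 and error bars are exact 95% counting intervals. Slc7a5 and Spock2 are highest in control cells with a Y-linked UMI (179 and 116 CPM), while 8430408G22Rik is higher in the mutant in both splits.

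Interferon genes differed between the libraries mainly in the cells with a Y-linked UMI. The list summed to 3402 and 3357 CPM in Xist cells (log2 ratio -0.02) and to 2917 and 4671 CPM in Y-linked cells (0.68). Isg15 was at 54.8 and 70.1 CPM against 50.3 and 163 CPM, and Irf7 at 16.7 and 17.0 CPM against 8.46 and 51.5 CPM. G2 and mitosis genes also went opposite ways, at 1762 and 1147 CPM in Xist cells (-0.62, 17 of 20 genes below 0) and 1226 and 2540 CPM in Y-linked cells (1.05, 20 of 20 above 0). Arterial genes were at 0.04 and -0.62. The Y-linked mutant cells were few and deep, with a median of 13684 UMIs against 9512 in the Y-linked control cells and 9666 and 9444.5 in the Xist cells. Transcripts of other cell types also differed between these groups. Mesenchyme genes summed to 5936 and 1733 CPM in Xist cells and to 840 and 153 CPM in Y-linked cells. Retinal progenitor genes summed to 612 and 1096 CPM and to 1043 and 451 CPM. The part of depth and of foreign RNA in the ratios of both splits was not tested.

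Other values had the same sign in both splits, in part with intervals that include 0. Lymphatic genes summed to 327 and 99.1 CPM in Xist cells (log2 ratio -1.71, -2.08 to -1.37) and 516 and 117 CPM in Y-linked cells (-2.13, -2.52 to -1.78). These sums rest on few genes: Nts held 117 of the 215 control UMIs in Xist cells and 0 of the 99 mutant UMIs, and Ccl21a held 414 of 1099 control UMIs in Y-linked cells. Their median was -0.30 in Xist cells and -3.62 in Y-linked cells, and Mmrn1, at 8 and 12 UMIs in Xist cells, was at -0.018 there (-1.43 to 1.48). Lyve1 was at 42.6 and 8.01 CPM and at 37.1 and 0 CPM. Ihh was at 102 and 88.1 CPM in Xist cells (-0.21, -0.69 to 0.27) and 125 and 30.2 CPM in Y-linked cells. On the higher side 8430408G22Rik was at 22.8 and 204 CPM and at 49.3 and 97.6 CPM, and Edn1 at 74.6 and 102 CPM (0.45, -0.051 to 0.98) and at 54.5 and 153 CPM. The ranked genes were chosen by their ratio over the same members, so their signs in the splits are a description and no check of that ratio. Of the 12 ranked higher genes 7 had a ratio above 0 in both splits (8430408G22Rik, Edn1, Gda, Isg15, Mtmr11, Timp4 and Tnfrsf9). Of the 12 lower genes 5 had one below 0 in both (Fam78a, Ihh, Mmrn1, Nts and Scgb3a1). This is a count of signs: besides Mmrn1, Ihh and Edn1, the intervals of Isg15 (0.35, -0.24 to 0.98), Tnfrsf9 (0.90) and Fam78a (-1.75) in Xist cells and of Timp4 (0.056, -1.28 to 1.22), Fam78a (-1.38) and Scgb3a1 (-1.64) in Y-linked cells include 0. Fenestrated genes lay near 0: their summed level was at 0.03 and 0.06 in Xist and Y-linked cells, while their median differed in sign, at 0.12 and -0.03, with Plvap at 1421 and 1220 CPM (-0.22) and at 1092 and 1118 CPM (0.03).

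The members were last divided by detection of Plvap and of 6 barrier genes after thinning each cell to 1000 UMIs, which left 516 control and 272 mutant cells. Cells on the Plvap side (a Plvap UMI and none of Mfsd2a, Slco1c1, Slc38a5, Abcb1a, Spock2 and Itm2a) were 26.9% of control and 23.2% of mutant members, and 38.6% and 34.6% of those with 5 or more gate genes, against 0.49% and 0.19% of the cells outside the gate. Cells on the barrier side (a UMI of those 6 genes and no Plvap) were 16.1% and 17.3% of members, beside 19.6% and 16.3% outside the gate, so below it in the control and above it in the mutant, with intervals that overlap in both libraries. They lay far below the 49.3% and 50.9% of mural-gated cells, and this share is not read as barrier endothelium. Cells with Plvap and a UMI of those 6 genes were 14.3% and 8.46% of members, and 19.6% and 13.1% with 5 or more gate genes. Cells with neither were 42.6% and 51.1%, and 26.9% and 37.25% with 5 or more gate genes. The mutant minus control difference of the Plvap-side share, -3.78 percentage points, was -19.55 in Xist cells and 10.4 among members up to 2000 UMIs. That of the barrier-side share, 1.19 points, was 8.78 in Xist cells and -6.90 up to 8000 UMIs. Cells with at least 2 UMIs of cycle genes were 30.04% and 31.62% of members, under the 35.8% and 35.4% of other cells, and 22.2% and 21.6% of those with 5 or more gate genes. Without thinning the Plvap-side shares were 16.5% and 11.2%, the barrier-side shares 18.7% and 23.9% and the cycling shares 67.2% and 65.6%. Cells with both Plvap and a UMI of the 6 barrier genes were then 49.7% and 47.0% of members. With 5 or more gate genes they were 72.7% and 76.4%, opposite in direction to the thinned shares. At full depth most of these cells thus carried both kinds of transcript.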

How the data were processed

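Eye-cup cells of newborn control (Myrf fl/fl) and mutant (also carrying Rx>cre) mice were profiled by droplet 3′ RNA sequencing, 1 library each of 3 pooled eye cups. The authors deposited filtered matrices of raw UMI counts per gene and barcode (31053 features); their processing notes name Cell Ranger 7.1.0, Seurat 4.1.1 and mm10. The matrices held 14305 and 12222 barcodes; those with at least 200 genes and at most 15% mitochondrial UMIs were kept (14131 and 12027). The study removed cells over 2000 counts as doublets; this was used only as an alternative, because most members lie above it. At its automatic cutoff Scrublet called 0% (control) and 5.46% (mutant) of cells, so cells called at the expected rate (11.3% and 9.62%) were left out as an alternative. Calls were more frequent among the members, at 105 control cells (19.5%) and 73 mutant cells (25.6%), than among all kept cells (11.6% and 10.1%). With 5 or more gate genes 51 control and 27 mutant cells were called.

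UMI counts were summed over members per library and scaled to CPM. With 1 library per genotype no test was made. Sums and ratios carry exact Poisson intervals and shares carry Clopper-Pearson intervals, all at 95%; a gene at 0 was set to a floor of 3 counts per library for a bound. Genes were named by rule: the gate and exclusion genes, the 20 with the highest enrichment, the 12 enriched and 5 other genes ranked highest in each direction by the interval bound nearest to 0, and in each list those with most UMIs and up to 4 past 2-fold. Others were chosen after their values were seen. The members and lists were chosen with earlier results of these data known. The calculation of ratios and intervals was checked on simulated counts with known fold changes. Python 3.11.15, NumPy 2.4.6, SciPy 1.17.1, pandas 2.3.3, scanpy 1.11.5 and matplotlib 3.10.9 were used. Promoters came from RefSeq on GRCm38.p6, and gene coordinates from the GENCODE annotation of the same assembly (mm10).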

Additional observations from a re-analysis of the deposited data

Results flagged for a closer look

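Log2 ratios (mutant over control) of some genes went opposite ways in members with Xist and in members with a Y-linked UMI; these differences were not tested, since each rests on 1 library a genotype. Fabp4 was at 1.65 in Xist members, where 1 cell held 1585 of the 2643 mutant UMIs found with 5 or more gate genes, and -0.18 in Y-linked members, Spock2 at 1.34 and -2.39, Slc7a5 at 0.96 and -2.05, its partner Slc3a2 at 0.50 and -1.22, and Prox1 at 2.05 and -4.70, although with 5 or more gate genes both Prox1 ratios were below 0 (-0.30, -2.32 to 1.71, and -3.62 with 0 mutant UMIs). Bst2 went the other way, at -0.50 and 1.17.

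Other genes differed in direction between endothelial-gated cells and a neighbouring class, again untested. Lsr was at -1.14 in endothelial-gated and 0.87 in mural-gated cells, and Mtmr11 at 1.09 and -0.34. Rbp2 was at 1.86 and -3.18. Dsp (3.47 and -0.78), Gsta2 (3.48 and -1.99), Krt5 (3.29 and -0.61) and Krt12 (3.64 and -5.72) owe much of the endothelial value to 1 mutant cell each. Hbb-bs was at -4.76, against 0.07 in mural-gated and 1.27 in macrophage-gated cells, with 7098 of its 9576 control UMIs in 1 cell. Against macrophage-gated cells Irf7 was at 1.09 and -0.50, and Ccl2 at 1.31 and -0.40.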

How the results depend on the processing

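With 1 library a genotype, nothing here separates genotype from litter, sex or dissection, and low genes rest on few cells. No paired analysis was possible because each genotype has 1 library and no test was made. Of 1489 alternative values for 116 named genes, 245 had the opposite sign, of which 14 belonged to genes past 2-fold, and 568 others than these 14 moved beyond the counting interval. Of 219 values for the 14 other results 39 had the opposite sign, of which 16 belonged to results whose interval excluded 0, and 53 others than these 16 moved. The lymphatic median (-1.97) was -0.75 in Xist cells, -3.89 in Y-linked cells and -0.27 (3 genes) up to 8000 UMIs. Unless said otherwise the cause of a change was not tested. Settings with 5 or more gate genes, with members over 8000 UMIs only and without the top cell of each gene were chosen after seeing the data.

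The log2 ratio of shares (-0.69) was -1.01 with members up to 8000 UMIs, -1.39 up to 2000 UMIs, -0.34 over 8000 UMIs, -0.92 at 4 or more gate genes, -0.067 at 2 or more, -1.88 in Xist cells and 1.35 without members holding 3 genes of another class.

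Genes at least 2-fold higher (76) became 30 up to 2000 UMIs, 160 without other-class members, 50 at 2 or more gate genes, 687 in Xist cells, 167 in Y-linked cells, 49 after thinning, 30 with a pseudocount of 5 CPM, 20 at 100 or more UMIs and 293 at 1 or more. Genes lower (99) became 169 up to 8000 UMIs, 64 up to 2000, 48 without other-class members, 216 at 4 or more gate genes, 184 at 5 or more, 195 in Xist cells, 722 in Y-linked cells, 50, 42 and 305 in the last 3 settings. Fewer cells enter the Xist and Y-linked settings.

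The pan-endothelial median (-0.13) was 0.041 up to 8000 UMIs, 0.45 up to 2000, -0.031 without Scrublet calls, 0.022 without other-class members, 0.062, 0.052 and -0.64 at 4, 5 and 2 or more gate genes, -0.33 in Xist cells and 0.12 in Y-linked cells. The fenestrated median (-0.04) was 0.77 up to 2000 UMIs, 0.14, 0.13 and -0.40 at 4, 5 and 2 or more gate genes, and -0.38 and 0.16 in Xist and Y-linked cells. The barrier median (-0.45) was -0.041 without other-class members and 0.19 in Xist cells. The beta-catenin median (-0.34) was 0.019 and 0.38 (1 gene) up to 8000 and 2000 UMIs, -0.046 without other-class members, -0.60 in Y-linked cells and 0.19 after thinning. The arterial median (-0.41) was -1.66 (1 gene) up to 2000 UMIs and -0.11 without other-class members. The G2 and mitosis median (0.30) was -0.032 and 0.54 up to 8000 and 2000 UMIs, 0.12 without other-class members, 0.16 at 2 or more gate genes, -0.13 and 0.78 in Xist and Y-linked cells and 0.10 after thinning. The interferon median (0.18) was -0.043 up to 8000 UMIs, -0.13 at 2 or more gate genes, and -0.46 and 0.91 in Xist and Y-linked cells.

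The Plvap-side difference in percentage points (-3.78) was 10.4 up to 2000 UMIs, -10.9 over 8000 and -19.55 in Xist cells. The barrier-side difference (1.19) was -6.90 and -14.0 up to 8000 and 2000 UMIs, 7.88 over 8000 and 8.78 in Xist cells. The cycling difference (1.58) was -7.15 up to 2000 UMIs.

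Among genes, in Xist cells Spock2 was at 1.34, Slc7a5 at 0.96 and Irf7 at -0.23, and at 2 or more gate genes Reln was at 0.030. Without the top cell Ccl2 was at -1.33, Dsp -0.28, Krt12 -1.20, Krt13 -0.28 and Perp -0.63. At 4 and 5 or more gate genes Krt5 was at -2.71 and -2.76 and Krt12 at -3.09 and -3.75. Without other-class members Hbb-bs was at 0.094.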

Other observations

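Over 16 measured semaphorin, ephrin, slit and netrin receptors the median log2 ratio was -0.10. None passed 2-fold, against 0.671% of all genes higher and 0.875% lower. The counting interval lay below 0 for 5 of the 16 and above 0 for 0. With 5 or more gate genes it lay below 0 for 3 of 15 and above 0 for 2. Plxnd1, a semaphorin receptor that restrains vessel sprouting, was at 322 and 278 CPM over all members (-0.21, -0.34 to -0.09). Stmn2, counted with the arterial genes and also a neuronal gene, was at 91.5 and 130 CPM (0.50, 0.30 to 0.70), and at 90.3 and 164 CPM in members with 5 or more gate genes, where the direction was not shared: 0.88 (0.52 to 1.26) in Xist cells and -0.23 (-0.78 to 0.28) in Y-linked cells. In those members Pgf, a ligand of Flt1, was at 21 and 39 UMIs (1.58, 0.92 to 2.56) and Bmp6 at 28 and 34 UMIs (1.02, 0.35 to 1.89). Ednrb, a receptor for endothelin, was at 153 and 157 CPM over all members, beside the higher Edn1 described above.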
